A study of Mus musculus with 4 samples.

Results

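The 10 genes described here encode adhesion molecules and surface antigens by which stromal cells are recognised and sorted: Vcam1, Icam1, Alcam, Ncam1, Thy1, Nt5e, Cd44, Cd200, Cd9 and Ly6a. They were chosen by symbol, and each matched 1 row of the deposited table of raw counts, which lists 56980 genes. The table covers 4 RNA-seq libraries that form a single group, adult MSC (mesenchymal stromal cells), with 1 library from each of 4 male wild-type C57BL/6J mice of an in-house inbred colony, aged 14 weeks. From the bone marrow of each mouse, 100 cells without CD45, Ter119, CD31 and Sca1 but with CD51 and PDGFRa on their surface were sorted into a pool, and their polyadenylated RNA was amplified as full-length cDNA. No mutant, treated or younger group is included, so levels are compared between genes within a mouse and between mice, and no comparison between conditions can be made.

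In the bone marrow, stromal cells hold haematopoietic stem cells through surface proteins. VCAM1 is bound by the integrin VLA-4 (Itga4 with Itgb1) and ICAM1 by the leukocyte integrins LFA-1 and Mac-1, while ALCAM and NCAM1 join cells to each other. CD44 binds hyaluronan and osteopontin, CD200 signals to a receptor on myeloid cells, and CD9 is a tetraspanin that gathers integrins in the membrane. Thy1 (CD90) and Nt5e (CD73) are antigens that define MSCs in culture, and Ly6a encodes Sca1, the antigen against which these cells were gated.

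For the 2 members with the highest levels, Cd9 and Cd200, and for Icam1, whose level ran from 0 upward, the DNA in front of the gene is shown to give the context of their transcription start. The sequences are those of RefSeq on GRCm38.p6, where 6 of the 10 members had a promoter entry; each window ends before the gene as annotated by GENCODE M21 (for Cd9 and Cd200 at the last base before it, for Icam1 at the last base before the RefSeq start), and is written 5′ to 3′ on the strand of the gene. Capitals mark the GC box GGGCGG on either strand, to which Sp1-type factors bind,.
Cd9, chr6:125494792-125495010, minus strand: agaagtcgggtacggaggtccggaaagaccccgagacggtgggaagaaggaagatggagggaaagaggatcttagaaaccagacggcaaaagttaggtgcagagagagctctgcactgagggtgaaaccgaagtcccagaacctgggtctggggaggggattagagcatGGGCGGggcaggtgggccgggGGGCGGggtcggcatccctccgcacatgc
Cd200, chr16:45409054-45409303, minus strand: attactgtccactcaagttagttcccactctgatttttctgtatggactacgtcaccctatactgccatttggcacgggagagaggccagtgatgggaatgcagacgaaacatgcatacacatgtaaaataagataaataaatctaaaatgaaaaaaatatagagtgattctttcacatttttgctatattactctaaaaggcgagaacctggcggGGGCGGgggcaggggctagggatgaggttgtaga
Icam1, chr9:21015690-21015939, plus strand: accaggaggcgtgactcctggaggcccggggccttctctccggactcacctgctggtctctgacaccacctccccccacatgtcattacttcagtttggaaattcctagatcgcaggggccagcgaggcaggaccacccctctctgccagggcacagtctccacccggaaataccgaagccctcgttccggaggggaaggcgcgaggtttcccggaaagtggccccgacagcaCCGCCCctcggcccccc
The Cd9 window holds 2 GC boxes, and the Cd200 and Icam1 windows hold 1 each, 34 and 17 bases before the RefSeq start. A GC box is common: it is found in 28.3% of 32851 mouse promoter windows of 219 bases and in 32.7% of those of 250 bases. The motif was chosen after the sequences had been seen, and a match of letters is not evidence that a factor binds there.

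Depth was between 22738604 and 43545349 counts per library, and between 16109 and 18907 genes had a count, with the fewest in mouse 2. Levels are given as TPM (counts divided by the length of the gene's merged exons and scaled to a sum of 1e+06 transcripts in each library), which allows genes of different length to be compared. The genes of the gate matched the label: Pdgfra was at 38.4, 48.2, 30.7 and 41.7 TPM in mice 1 to 4 and Itgav, which encodes CD51, at 18.1, 14.3, 12.9 and 17.5 TPM, while Pecam1 (CD31) had between 5 and 14 counts. For Ptprc, the gene of CD45, 50 counts were found in mouse 4 and no more than 2 in any other mouse. Erythroid transcripts were present despite the gate on Ter119, with a sum over 8 markers of 35.04 TPM in mouse 2 and 5106 TPM in mouse 1. Osteoblast markers summed to between 77792 and 168024 TPM and niche markers to between 1052 and 4534 TPM, while neutrophil markers reached 39.7, megakaryocyte markers 7.95 and lymphocyte markers 1.46 TPM at most. Of the muscle markers, Pax7, Myod1 and Myf5 were at 0, and the sum of at most 132 TPM was Cdh15. In pooled cells such as these, fewer cells that express a gene and less of its RNA in each cell cannot be told apart.

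The levels of the 10 members ran from 688 TPM for Cd9 to no count for Thy1. Taking a median above 1 TPM over the 4 mice as expressed, 8 of 10 members were expressed, whereas 22.9% of all 52125 genes with a length and 44.2% of protein-coding genes were. Above 1 TPM in every mouse were 5 members, Cd9, Cd200, Vcam1, Ncam1 and Cd44, beside 15.4% of all genes and 30.1% of protein-coding genes. The members are known surface antigens of stromal cells, so a share above that of all genes describes this choice. Together they summed to 1294, 1096, 1430 and 1251 TPM in mice 1 to 4. Cd9 and Cd200 made up most of this sum, with 93.6, 76.2, 91.2 and 90.9% of it in the 4 mice. The sum thus differed less between mice than most of its parts.

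**Figure D1:**
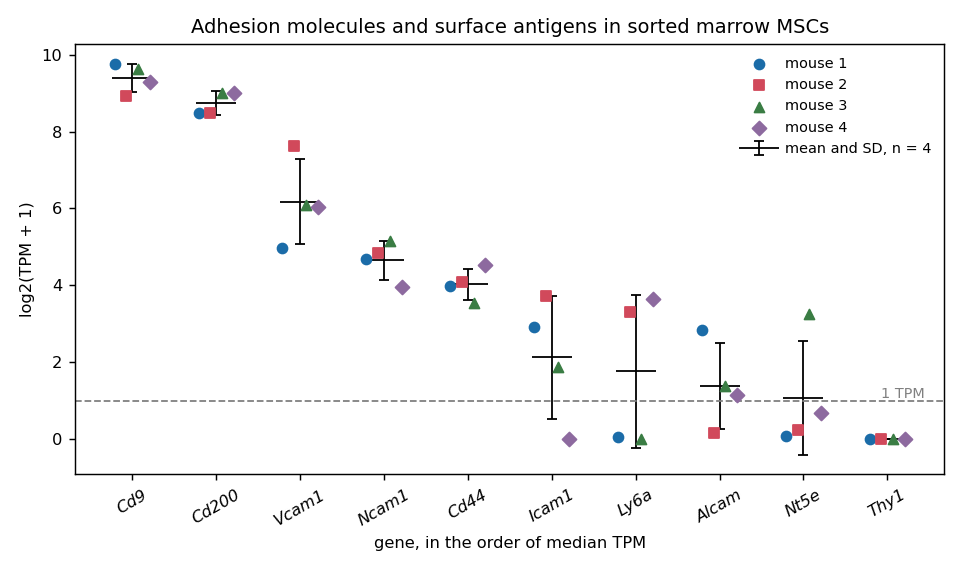
Level of each of the 10 genes as log2(TPM + 1), in the order of median TPM. Symbols are the 4 mice, horizontal bars with whiskers are the mean ± SD (n = 4), and the dashed line is 1 TPM. The symbols of Cd9 and Cd200 lie close together, whereas those of Icam1, Ly6a, Alcam and Nt5e fall on either side of the line.

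Among the molecules of cell communication, Cd9 and Cd200 were the most abundant members. Cd9 (ENSMUSG00000030342, chr6:125460266-125494791, minus strand, GENCODE M21 on GRCm38, as for all genes below) had 30812, 10944, 27977 and 13115 counts in mice 1 to 4. This corresponds to 857, 481, 792 and 621 TPM, with a mean of 688 ± 169.9 TPM (SD, n = 4), and placed Cd9 at rank 150 of all genes by median. Mice 1 and 3 were high and mouse 2 was lowest, and the highest level was 1.78 times the lowest. The sum of erythroid markers had the same order of mice, and its part in the Cd9 level was not tested.

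Among 22 tetraspanins, a family of membrane organisers, Cd9 had the second highest median. Cd63, which marks endosomes and exosomes, was above Cd9 in 4 of 4 mice, by 1.43 ± 0.19 in log2(TPM + 1). Cd81, which often acts beside Cd9, was at 509, 588, 603 and 479 TPM. Cd9 exceeded it in 3 of 4 mice by a mean of 0.31 ± 0.43, which is smaller than the SD of the difference. Igsf8 and Ptgfrn, membrane partners bound by both, had medians of 5.60 and 4.98 TPM, with Igsf8 at 0.699 TPM in mouse 3. Of the 23 genes in the list of tetraspanins and partners other than Cd9, 17 had a median above 1 TPM. The share of protein-coding genes, 44.2%, stands beside this count and those of the lists below, and no list was tested against it.

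Cd200 (ENSMUSG00000022661, chr16:45382135-45409053, minus strand) had 20743, 13075, 29409 and 17714 counts. Its levels were 355, 354, 512 and 516 TPM, with a mean of 434 ± 92.3 TPM (n = 4). Mice 1 and 2 were nearly equal, as were mice 3 and 4, and the coefficient of variation (CV) of 21.2% was the lowest of the members. Its receptor Cd200r1, an inhibitory receptor of myeloid cells, had 7 counts in mouse 2 and none in the other mice. Among the 33 immunoglobulin-type adhesion genes listed here, members included, Cd200 had the second highest median. Bsg (basigin), the highest, was above Cd200 in 4 of 4 mice, by 1.20 ± 0.48 in log2(TPM + 1). Cadm1, a homophilic adhesion molecule, was at 201, 101, 219 and 111 TPM and below Cd200 in every mouse.

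Of the ligands of leukocyte integrins, Vcam1 was the more abundant, and it varied more between mice than most genes of its level. Vcam1 (ENSMUSG00000027962, chr3:116109949-116129688, minus strand) had 4708, 19408, 10336 and 5900 counts. Its levels were 30.2, 197, 67.4 and 64.4 TPM, with a mean of 89.7 ± 73.3 TPM and a median of 65.9 TPM (n = 4). Mouse 2 was above the others and mouse 1 was lowest, 6.52 times below it. The library of mouse 2 was also the one in which the fewest genes had a count (16109). The part of this in the Vcam1 level was not tested. The mean without mouse 2 was 54.0 TPM. In mouse 2, Vcam1 made up 17.9% of the summed TPM of the 10 members, against 2.33 to 5.14% in the others. The merged exons of Vcam1 include a long single exon in GENCODE M21, and with the length of the longest coding transcript the mean was 167 ± 138 TPM. The length of a gene is the same in every mouse and does not enter the ratios between mice.

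Icam1 (ENSMUSG00000037405, chr9:21015985-21028817, plus strand) was detected in 3 of 4 mice, with 500, 586 and 202 counts in mice 1 to 3 and 0 in mouse 4. The levels were 6.52, 12.1 and 2.68 TPM. In mouse 4, the 3 counts taken as the smallest detectable value would be 0.0666 TPM. This floor covers the counting of reads only and sets no limit on RNA lost before amplification. As for Vcam1, mouse 2 was highest. Vcam1 exceeded Icam1 in 4 of 4 mice, with differences in log2(TPM + 1) of 2.05, 3.92, 4.22 and 6.03 and a mean of 4.05 ± 1.63. The exact two-sided sign-flip permutation test gave p = 0.125 (adjusted p = 0.125 over 3 pairs), which is the smallest p that 4 mice can give.

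The partners of these ligands on leukocytes were near or at 0 in these libraries, from which cells with CD45 had been gated out. Of 12 binding partners of the members, 5 had a median above 1 TPM, and each of these 5 is a matrix protein, growth factor receptor or integrin chain that cells outside the blood also make. Itgb1, the beta chain that many cells share, was at 175, 214, 175 and 169.7 TPM, while Itga4, which completes VLA-4, had 1, 5, 14 and 127 counts and stayed below 1 TPM in each mouse. Itgb2 and Itgam, the chains of Mac-1, had 0 counts in all 4 mice. Itgal, the alpha chain of LFA-1, had 188 counts in mouse 3 and at most 6 elsewhere. Of the proteases that release VCAM1 from the surface, Adam17 was at 9.58, 9.29 and 9.06 TPM in mice 1, 3 and 4. It had 3 counts in mouse 2, the library in which the fewest genes had a count (16109). Adam10, which cleaves CD44, was at 21.2, 28.3, 32.6 and 28.0 TPM in mice 1 to 4.

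The profile of Vcam1 over the mice was set beside those of other genes, measured as the root mean square difference of mean-centred log2(TPM + 1) over the 4 mice. Of the 8041 other genes above 1 TPM in every mouse, Il1rn (0.088), Tpgs2 (0.123) and Osbpl9 (0.128) were nearest to Vcam1. Il1rn, the antagonist of interleukin-1 at its receptor, was at 26.2, 184, 59.8 and 50.7 TPM. Among the markers of the haematopoietic niche, Lepr ranked 78, Cxcl12 130, Foxc1 254 and Ebf3 634 by likeness to Vcam1, and each was highest in mouse 2 and lowest in mouse 1. Lepr, the leptin receptor, was at 31.9, 120, 44.5 and 64.8 TPM, and Cxcl12, the chemokine that retains stem cells, at 983, 4329, 2224 and 1079 TPM. Prrx1, another marker of the list, ranked 5908 and was lowest in mouse 2. The osteoblast markers were farther away, with Ibsp at rank 3065, Bglap at 3553, Alpl at 5708 and Sp7 at 6528. These ranks describe 4 libraries, which share depth and composition within a mouse, and carry no test.

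**Figure D2:**
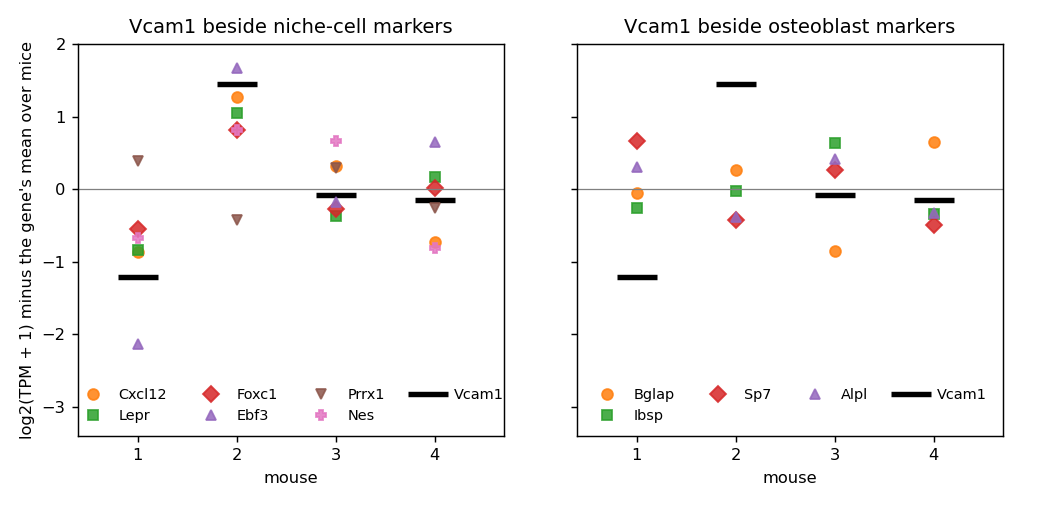
Vcam1 (black bars) beside niche-cell markers (left) and osteoblast markers (right) in each mouse, as log2(TPM + 1) minus the mean of the gene over the 4 mice. In mouse 2 Vcam1 lies at 1.45 with Cxcl12, Lepr, Foxc1, Ebf3 and Nes above 0. In mouse 1 it lies at -1.22 with those genes below 0. Prrx1, Alpl and Sp7 lie on the opposite side of 0 in both mice. Bglap lies on the same side as Vcam1 in both (-0.05 in mouse 1, 0.26 in mouse 2), and Ibsp lies below 0 in both (-0.27 and -0.03).

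Of the molecules that join like cells, Ncam1 was present throughout and Alcam was sparse. Ncam1 (ENSMUSG00000039542, chr9:49502136-49798925, minus strand) had 3775, 2640, 5130 and 1293 counts, corresponding to 24.8, 27.4, 34.3 and 14.4 TPM and a mean of 25.2 ± 8.22 TPM (n = 4). Mouse 4 was lowest and mouse 3 highest. Fgfr1, a receptor that NCAM1 can engage, was expressed at 39.5, 80.2, 55.7 and 82.9 TPM. The Schwann cell marker S100b was at 42.7, 47.4, 67.2 and 14.3 TPM, also highest in mouse 3 and lowest in mouse 4. The defining marker Sox10 had 1 count in mouse 1 and 0 in the others, and the part of Schwann cells in the Ncam1 level was not tested. The antisense gene Gm11149, which shares 417 bases with the exons of Ncam1, had 151, 205, 306 and 0 counts. The settings the paper gives for the counting name no strand. Reads in the shared bases are therefore uncertain for both genes, by an amount that these counts do not measure. Genes on the opposite strand share 218, 511 and 61 bases with the exons of Cd9, Icam1 and Vcam1, which is 10.7, 11.7 and 0.688% of their length. They had no more than 31 counts in any mouse, which again does not measure the reads affected.

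Alcam (ENSMUSG00000022636, chr16:52248996-52454074, minus strand) had 771, 9, 197 and 89 counts, which gives 6.15, 0.114, 1.601 and 1.21 TPM and a median of 1.41 TPM. Mouse 1 was high, and mouse 2 was the only mouse below 1 TPM. The order of the mice was the reverse of that of Vcam1 in its extremes, with mouse 2 highest for Vcam1 and lowest for Alcam. The erythroid marker sum had the same order of mice as Alcam, and its part in the level was not tested. Cd6, the ligand of ALCAM on lymphocytes, had 1 count in all 4 libraries together. Ncam1 exceeded Alcam in 4 of 4 mice, so that the difference Alcam minus Ncam1 was -3.27 ± 1.22 in log2(TPM + 1) (exact two-sided sign-flip permutation test, p = 0.125, adjusted p = 0.125 over 3 pairs, again the smallest possible). Of 27 other immunoglobulin-type adhesion genes, 7 had a median above 1 TPM.

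**Figure D3:**
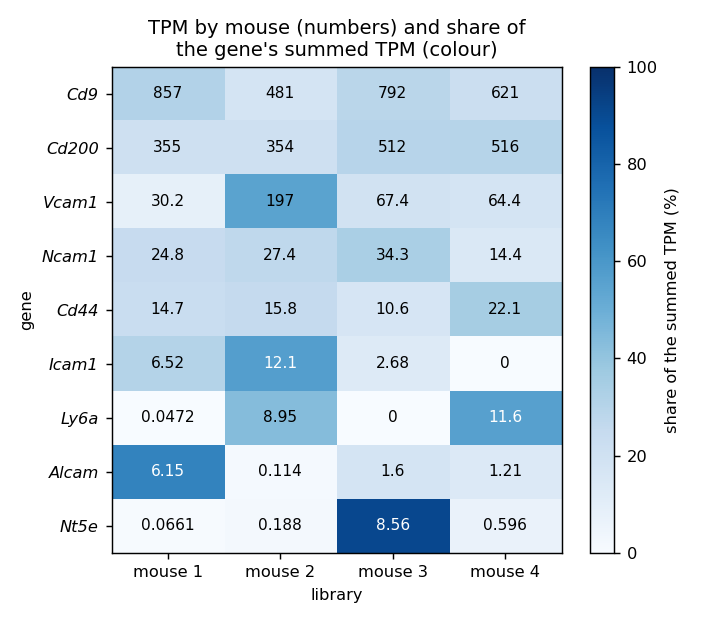
TPM of each member with counts in each mouse (numbers) and the share of the gene's TPM summed over the 4 mice (colour, in %). Cd9, Cd200, Ncam1 and Cd44 are spread over all mice, whereas 1 mouse holds most of the TPM for Nt5e (mouse 3), Alcam (mouse 1), Vcam1 and Icam1 (mouse 2), and mice 2 and 4 hold that of Ly6a.

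Cd44, the receptor for hyaluronan, was expressed in every mouse at a moderate level. Cd44 (ENSMUSG00000005087, chr2:102811141-102901665, minus strand) had 1747, 1193, 1236 and 1549 counts. The levels were 14.7, 15.8, 10.6 and 22.1 TPM, with a mean of 15.8 ± 4.79 TPM (n = 4), highest in mouse 4 and lowest in mouse 3. Its ligand osteopontin, encoded by Spp1, was among the most abundant transcripts, with 15346, 50489, 72032 and 34947 TPM, and was highest in the mouse in which Cd44 was lowest. Msn (moesin) and Rdx (radixin), which tie CD44 to actin, had medians of 74.0 and 54.7 TPM, and Ezr (ezrin), the other protein of this family, a median of 2.92 TPM with 0 counts in mouse 2. The hyaluronan synthases were nearly silent, since Has2 had no count in any mouse, Has3 had at most 2, and Has1 exceeded 1 TPM in mouse 3 alone (5.48 TPM, 428 counts). Of the 8 genes of shedding, linkage to actin and hyaluronan synthesis, 5 had a median above 1 TPM.

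Of the 3 antigens that mark MSCs in culture or by sort, Thy1 was not detected, while Nt5e and Ly6a were above 1 TPM in some of the mice. Thy1 (ENSMUSG00000032011, chr9:44043384-44048579, plus strand) had 0 counts in all 4 mice, where 3 counts would be 0.0569, 0.0900, 0.0580 and 0.0969 TPM. These floors cover the counting of reads only and set no limit on RNA lost before amplification. Nt5e (ENSMUSG00000032420, chr9:88327197-88372092, plus strand) had 10, 18, 1272 and 53 counts, which gives 0.0661, 0.188, 8.56 and 0.596 TPM. Mouse 3 thus stood apart from the others, and the median of 0.392 TPM was below the threshold although the mean was 2.35 ± 4.14 TPM. Without mouse 3 the mean was 0.283 TPM. Thy1 minus Nt5e was -1.07 ± 1.48 in log2(TPM + 1), a difference smaller than its SD, and without mouse 3 it was -0.34. As Thy1 had no count, the sign of this difference was fixed by any count of Nt5e, and the p of 0.125 from the exact sign-flip permutation test carries no information. The summed macrophage markers also were highest in mouse 3, at 16.1 TPM against at most 1.01 TPM elsewhere, but 5 of 8 of them, Adgre1, Csf1r, C1qa, C1qc and Fcgr1, were at 0 in every mouse, and the part of these cells in the Nt5e level was not tested.

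CD73 forms adenosine from AMP, and 6 of 16 other genes of this pathway had a median above 1 TPM. Alpl, the bone alkaline phosphatase that can also split AMP, was at 892, 549.7, 963 and 573 TPM, 8.43 ± 1.29 above Nt5e in log2(TPM + 1). Entpd3, which breaks down extracellular ATP, was at 314, 97.6, 252 and 263 TPM, while Entpd1 (CD39) had 60 counts in mouse 4 and none elsewhere. Slc29a1, the adenosine transporter, was at 174, 371, 359 and 165 TPM. The adenosine receptors were found in single mice, Adora1 in mouse 1 with 635 counts and Adora2a in mouse 4 with 403 counts. Nt5e was high in mouse 3, where Alpl also was highest.

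Ly6a (ENSMUSG00000075602, chr15:74994877-74998031, minus strand) had 1, 120, 0 and 144 counts, which gives 0.0472 TPM in mouse 1, 8.95 TPM in mouse 2, 0 in mouse 3 and 11.6 TPM in mouse 4. The sort excluded cells with Sca1 on their surface, so a low level of Ly6a was selected for and is not a result. The mice fell into a pair without Ly6a and a pair with it, and the median of 4.50 TPM lies between them, at a level that no mouse had. Mice 2 and 4, the pair with Ly6a, also had the shallower libraries. These held 26050230 and 22738604 counts, against 43545349 in mouse 1 and 42747050 in mouse 3, and the part of depth was not tested. The endothelial marker Tek was detected in the same 2 mice, with 58 counts in mouse 2 and 42 in mouse 4 and 0 in the others. Of the 8 endothelial markers, 5 were at 0 in every mouse, the sum of the list was between 0.0465 and 1.28 TPM, and the part of endothelial cells in the Ly6a level was not tested. Of 18 other genes of the Ly6 family, 5 had a median above 1 TPM, led by Cd59a (107.8 TPM), an inhibitor of complement, and Ly6e (101 TPM).

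The order of the members by median TPM was Cd9, Cd200, Vcam1, Ncam1, Cd44, Icam1, Ly6a, Alcam, Nt5e and Thy1. Of the 9 pairs of neighbours, 4 differed by more than the SD of their difference within mice and in the same direction in 4 of 4 mice. These were Cd9 over Cd200 (0.65 ± 0.44 in log2(TPM + 1)), Cd200 over Vcam1 (2.56 ± 1.18), Vcam1 over Ncam1 (1.53 ± 1.13) and Cd44 over Icam1 (1.90 ± 1.83). Ncam1 and Cd44 differed by 0.63 ± 0.90 and were not separated. Icam1, Ly6a, Alcam and Nt5e cannot be ordered, since neighbours among them differed by 0.31 to 0.38 with SDs of 1.91 to 2.90.

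The spread between mice was widest for the members of low level. The CV expected from counting reads alone was between 0.715 and 12.3%, which is a lower limit to the technical error because PCR copies are not independent molecules. The CV between mice ran from 21.2% for Cd200 to 176% for Nt5e. Read beside all genes in the same range of mean TPM, Cd9 (24.7%) and Cd200 (21.2%) were near the median of 23.5% for 911 genes between 100 and 1000 TPM. Ncam1 (32.6%) and Cd44 (30.3%) were below the median of 42.4% for 4673 genes between 10 and 100 TPM, while Vcam1, at 81.8%, had a larger CV than 85.8% of that range. Between 1 and 10 TPM the median over 8584 genes was itself 89.6%, and Icam1 (98.5%), Ly6a (117%) and Alcam (117%) were not far above it. No mouse was high throughout, since mice 1, 2 and 3 were each highest for 2 members and mouse 4 for 3.

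**Figure D4:**
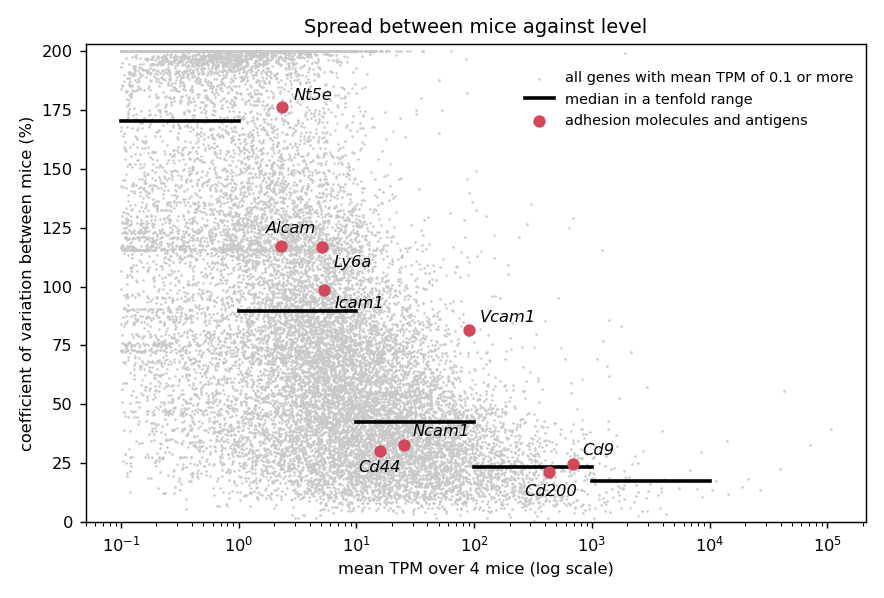
CV of TPM between the 4 mice (%) against mean TPM (log scale) for all genes with a mean of at least 0.1 TPM (grey), with the median CV in each range (black lines). Of the labelled members (red), Vcam1 and Nt5e lie well above the median of their range, and Ncam1 and Cd44 lie below it.

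For the members above 1 TPM in every mouse, the 3 genes nearest in profile were found in the same way as for Vcam1. Calu, Dnajc8 and Atp5b were nearest to Cd9, at differences of 0.022 to 0.037, and 959 genes were within 0.25. Ndufs8, Gm14388 and Gm19503 were nearest to Cd200, Zfp606, Eloc and Nptn to Ncam1, and Mettl9, Gm8268 and Dclre1a to Cd44. By contrast, 30 genes were within 0.25 of Vcam1. Over 4 mice a flat profile is shared by many genes, and likeness says nothing of common control.

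Other stromal surface antigens, taken as a list of 16 genes, were expressed in 9 cases. Cdh11, a cadherin of mesenchymal cells, had the highest median at 92.6 TPM, followed by Lepr at 54.7 TPM. Eng (CD105), named with Thy1 and Nt5e as an antigen of cultured MSCs, was at 19.1, 38.3, 13.6 and 15.3 TPM and exceeded both in 4 of 4 mice, by 4.38 ± 0.64 over Thy1 and 3.31 ± 1.93 over Nt5e in log2(TPM + 1). Mcam (CD146), an antigen of perivascular cells, had no count in any mouse. Pdpn and Cd24a were found in mice 1, 3 and 4 and had 0 counts in mouse 2. Over the 7 lists of related genes, 53 of 118 genes (44.9%) had a median above 1 TPM, a share close to the 44.2% of protein-coding genes, and 42 were above 1 TPM in every mouse.

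**Figure D5:**
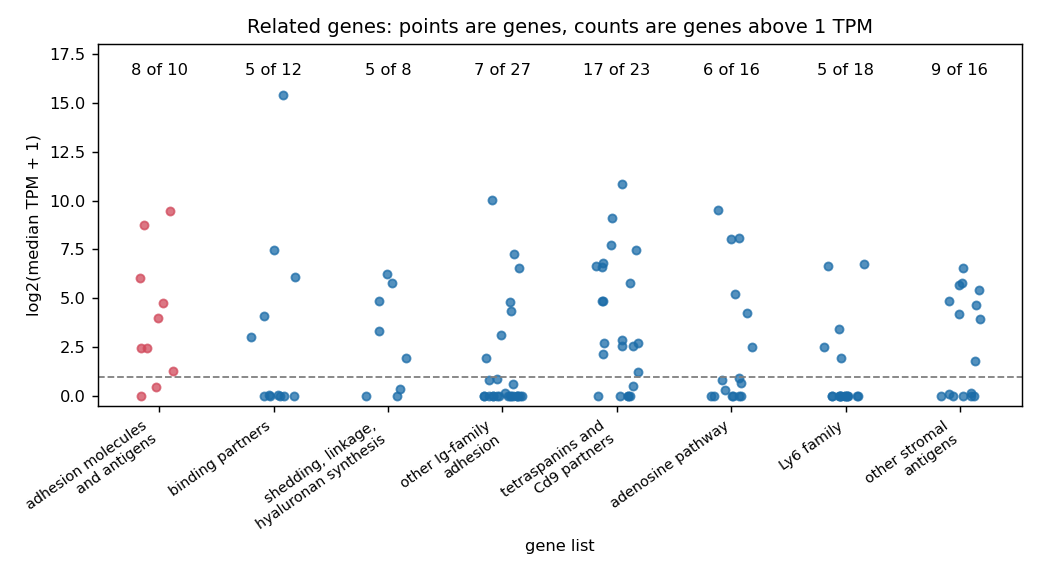
log2(median TPM + 1) of the 10 members (red) and of the genes in each list of related genes (blue), with the number above 1 TPM (dashed line) of the number listed on top. Tetraspanins are above the line in 17 of 23 cases, immunoglobulin-family adhesion genes in 7 of 27, beside 44.2% of protein-coding genes.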

How the data were processed

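RNA of 100 sorted MSCs from each of 4 mice was sequenced, and the authors deposited raw counts per Ensembl gene. Per the submitters' processing notes, bcl2fastq 2.20.0, STAR 2.7.10, GRCm39 and featureCounts (Subread 1.6.5) were used. Only uniquely mapped pairs were counted, so reads shared with near-identical copies are lost, and no molecular identifiers are described, so that floors of 3 counts cover counting error only.

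From the counts, Python 3.11.15 (numpy 2.4.6, pandas 2.3.3) gave TPM with merged exon lengths of GENCODE M21 on GRCm38. This is not the build of the counts, and no coordinates were converted. Genes without a length there (4855) were left out. The 10 members, the related lists and the markers were chosen with earlier results of these data known. Named were the members, the gate genes, from each list its 2 highest genes and direct partners of a member, markers by sum and at 0, and the 3 genes nearest in profile; others were chosen after their values were seen. With 1 group, 3 pairs were tested by an exact sign-flip test within mice with Benjamini-Hochberg adjustment. A BLAST 2.17.0 search looked for near-identical copies (at least 95% over 100 bases) and TMM factors came from edgeR 4.0.16. The code was tested on simulated data. Alternatives were other thresholds, lengths, scalings and pseudocounts and leaving out each mouse.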

Additional observations from a re-analysis of the deposited data

Results flagged for a closer look

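The gap of the extreme mouse to the nearest other mouse, divided by the range, was examined for 26 values over the 4 mice. For 6 of them it was above Dixon's critical value. Chance gives about 1 such value in 20 only if the values are drawn from a normal distribution. The values examined are raw levels, sums and counts, several of them near the floor. The 6 of 26 therefore cannot be set against that rate. The gap was 0.938 for Nt5e, high in mouse 3. It was 0.952 for the summed macrophage markers, also high in mouse 3, owing to C1qb (176 counts) and Cd68 (144 counts). For Ptprc the gap was 0.963, with 50 counts in mouse 4, and for the summed B and T lymphocyte markers it was 0.988, again in mouse 4, where Cd79a had 22 counts. The megakaryocyte markers, with a gap of 0.906, were high in mouse 1, where Gp9 had 122 counts. The number of genes with a count had a gap of 0.920 and was lowest in mouse 2 (16109 genes). No explanation of these values was tested.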

How the results depend on the processing

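With a threshold of 5 TPM, or with at least 10 counts required in every mouse, 5 members in place of 8 were expressed, and Alcam, Icam1 and Ly6a were lost both times. Without length, and by the mean over mice, 9 were, with Nt5e gained. Leaving out each mouse gave 7 to 8 members (Ly6a was lost without mouse 2 and without mouse 4), and 5 to 6 above 1 TPM in every mouse (Alcam gained without mouse 2, Icam1 without mouse 4). The number of related genes expressed ranged from 43 to 59 over the alternatives; leaving out 1 mouse gave 52 to 57. The Ly6 list fell from 5 to 3 with a threshold of 5 TPM or with at least 10 counts, and the list of shedding, linkage and hyaluronan synthesis from 5 to 3 with at least 10 counts. The differences of the 3 pairs kept their sign under all 11 alternatives each, between 3.05 and 5.39 for Vcam1 minus Icam1, between -2.87 and -0.34 for Thy1 minus Nt5e and between -4.20 and -2.07 for Alcam minus Ncam1; leaving out each mouse gave 3.40 to 4.72, -1.39 to -0.34 and -3.75 to -2.80. The sign of Thy1 minus Nt5e could not change, since Thy1 is at 0 in every mouse, and 4 mice cannot reach 0.05. The order of members was kept under each length and scaling, save that Alcam and Ly6a changed places without length. Cd9 was at 894 TPM on average with the length of its longest transcript. The length of the longest coding transcript was added after seeing the data. No paired analysis was possible because all samples form 1 group, so that no groups share mice; the differences within mice are between genes. Depth does not limit members above 10 TPM, whose counts exceed 1000 in each mouse.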

Other observations

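Among the 118 related genes, 20 (16.9%) were above 1 TPM in exactly 1 mouse. For 11 of these 20 genes (55%) that mouse was mouse 3, in which Nt5e also was high. They are Anpep, Bcam, Cd248, Cd34, Chl1, Enpep, Has1, Itgal, Ly6c1, Pvr and Tspan32, at 1.32 TPM (Cd34) to 5.48 TPM (Has1). In mouse 3 the summed endothelial markers were lowest (0.0465 TPM, 5 counts) and the summed macrophage markers highest (16.1 TPM, 330 counts). The part of either cell type in the levels of these genes was not tested. Over all genes with a length, 4432 were above 1 TPM in exactly 1 mouse, and mouse 3 was that mouse for 26.9% of them (30.8% among protein-coding genes). The genes were noticed after their values were seen, and no test was made.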
